A study of Drosophila melanogaster with 9 samples.

Results

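The histone genes of Drosophila melanogaster were followed by class through an RNA immunoprecipitation experiment (RIP-seq) on the RNA-binding protein ORB2, a member of the CPEB family. All listed genes with a symbol beginning with His1, His2A, His2B, His3 or His4 were taken, 31 of the 6440 genes in the deposited tables. Of these, 27 are copies from the tandem histone repeat (10 His1, 4 His2A, 7 His2B, 2 His3 and 4 His4 copies) and 4 are single-copy variants outside it (His2Av, His3.3A, His3.3B and His4r). The samples were extracts of wild-type embryos aged 0 to 3 h, with 3 libraries in each of 3 groups. ORB2 IP used the synthetic antibody fragment (Fab) anti-orb2 E8 on anti-FLAG beads, control IP used the Fab anti-EGFR-C1, and input was RNA of total extract with no immunoprecipitation. Ribosomal RNA was depleted and libraries were stranded, so RNAs without a poly(A) tail were not selected against. The labels do not say whether the replicates came from separate embryo collections, so p-values measure the spread between these libraries, which may be technical.

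The 5 canonical histones package DNA: an H3-H4 tetramer and a pair of H2A-H2B dimers form the nucleosome core, and the linker histone H1 binds where DNA enters and leaves it. Canonical histone mRNAs are made mainly during S phase and end in a stem-loop bound by the stem-loop binding protein (Slbp) in place of a poly(A) tail. Replacement variants are made outside S phase from polyadenylated mRNAs. The syncytial Drosophila embryo goes through rapid rounds of DNA replication and draws on large maternal stores of histone mRNA and protein.

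In the Ensembl annotation of BDGP6.54, 111 copies of the 5 canonical genes lie on chromosome 2L between 21416953 and 21541681. The annotation holds 23 His1, 20 His2A, 23 His2B, 23 His3 and 22 His4 copies, and all 27 listed copies were found in it by identifier. Outside His4 the annotated transcripts of a class have nearly one length: 1023 nt for His1, 595 nt for His2B, 529 nt for His3 and 476 to 493 nt for His2A. His4 transcripts run from 412 to 528 nt. The listed copy His4:CG33869 has 526 nt and the other listed His4 copies have 413 nt. The variants are His2Av (FBgn0001197; chromosome 3R, 26866929 to 26869220), His3.3A (FBgn0014857; 2L, 5055058 to 5056149), His3.3B (FBgn0004828; X, 9152523 to 9156669) and His4r (FBgn0013981; 3R, 14625755 to 14626614). Their longest annotated transcripts are 1169, 926, 2114 and 753 nt. The build behind the deposited tables is not given in the sources used here. Copies of a class are near-identical and share reads, so the value of a single copy depends on how reads were divided, and class totals over the listed copies were used beside it. Reads assigned to unlisted copies are missing from these totals. If their part differed between groups, the fold changes, shares and ratios of class totals would move with it, and this was not tested.

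The part of each library that histone transcripts made up depended on the unit. In TPM, a level per transcript length and library total, they held 14.1%, 15.0% and 16.8% of the listed genes in ORB2 IP replicates 1 to 3. They held 30.2%, 26.5% and 22.9% in control IP, whereas input held 18.3%, 13.8% and 17.2%. In normalized counts, which are not divided by length, the shares were lower, at 3.98%, 4.00% and 5.84% in ORB2 IP, 10.3% to 14.0% in control IP and 4.79% to 7.62% in input. In both units all control IP libraries lay above all others, while ORB2 IP and input overlapped. Of the embryo markers checked, 7 of 7 maternal and 7 of 8 early zygotic genes were listed, and 0 of 4 muscle, 0 of 4 neuron and 0 of 5 fat body or gut genes were. The lowest input TPM of any listed gene was 1.00, so genes below that level lie outside the tables. Normalized-count totals ran from 2625390 to 5368630, and read depth is not recorded in the tables. ORB2 IP replicate 2 stood apart in zeros: 108 of all genes and 7 histone copies were listed at 0 in its normalized counts. Any other immunoprecipitate library had at most 14 genes and 1 histone copy at 0. Every listed gene had at least 1.00 TPM in each input library, so input is no comparison for zeros.

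Input levels of the listed copies ordered the classes as follows; copies outside the tables are not in these totals, so the order between classes depends on how reads of unlisted copies were handled, which is not given. His3 copies, encoding H3, summed to 48768, 39905 and 58042 TPM in input replicates 1 to 3. His2A copies summed to 42620, 42052 and 49996 TPM. His4 copies summed to 50039, 29897 and 23976 TPM. Replicate 1 was thus highest for His4 and replicate 3 for His3 and His2A. His2B copies summed to 29702, 17744 and 31590 TPM. Neighbours in this order of the 4 core classes overlapped between libraries. The linker His1 copies were far lower, at 4233, 2841 and 1918 TPM. The replacement gene His4r, which encodes the same H4 protein from a polyadenylated mRNA, overlapped His1 at 3347, 2750 and 3775 TPM. The remaining variants, His3.3B (mean 1091 TPM), His2Av (966 TPM) and His3.3A (917 TPM), overlapped one another. In bulk embryo extract, fewer cells that hold a transcript and less of it per cell cannot be told apart.

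The order was not the same in the immunoprecipitates. His4 copies were the most abundant class in both, at 54890, 60713 and 64502 TPM in ORB2 IP against 109872, 96349 and 78105 TPM in control IP. His3 copies followed at 31223, 32649 and 39358 TPM in ORB2 IP against 79537, 69729 and 66350 TPM in control IP. His2B copies came next with 23875, 25999 and 27308 TPM against 51504, 46334 and 39399 TPM. For each of these 3 classes every ORB2 IP library lay below every control IP library. His2A copies summed to 18403, 19496 and 24603 TPM in ORB2 IP against 42915, 35787 and 29581 TPM in control IP, again with no overlap. Linker His1 copies held 5829, 4293 and 4458 TPM in ORB2 IP against 6895, 5976 and 4202 TPM in control IP, where the groups overlapped.

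**Figure D1:**
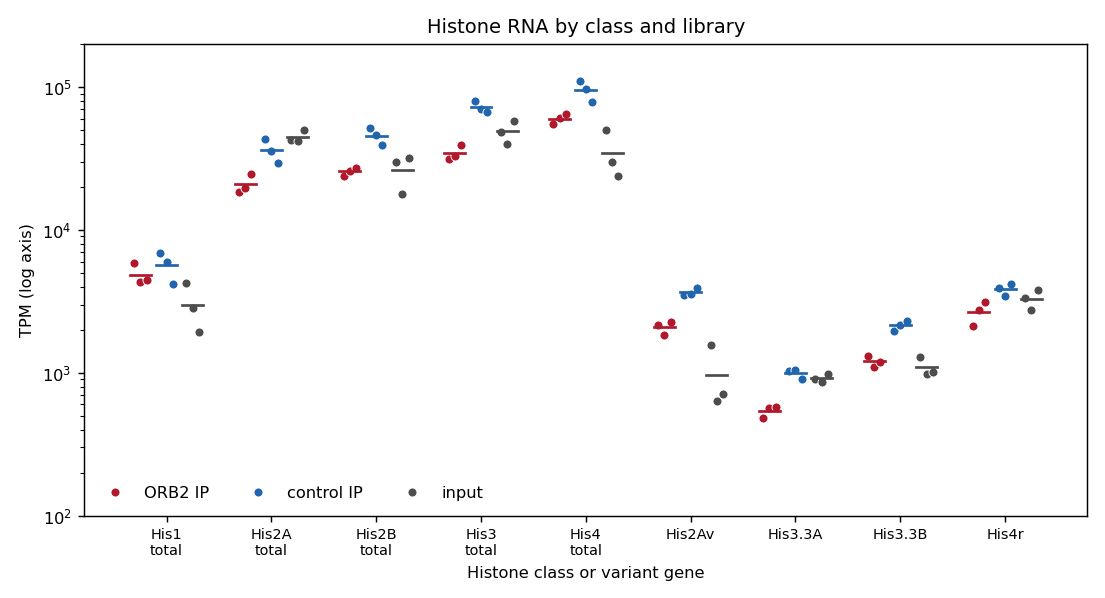
TPM on a log axis of each histone class, summed over its listed copies, and of each variant gene; points are libraries (n = 3 per group) and bars are group means. In control IP the His4 total reached 109872 TPM, and His4 was the highest class in both immunoprecipitates while His3 was highest on average in input.

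Histone RNA was lower in ORB2 IP than in control IP for the replacement variants, and for the repeat copies most differences did not pass the test. All 4 variants were called lower, with log2 fold changes of normalized counts from −1.13 to −0.79. Among the 27 repeat copies 4 fell, 0 rose and 23 did not pass. Across all genes tested, 21.6% were called lower and 20.8% higher in this comparison (limma, Benjamini-Hochberg adjusted p below 0.05), against 8 of 31 histone genes lower and 0 higher. The median log2 fold change was −1.06 over the histone genes and 0.00 over all 6318 genes tested, and 30 of 31 histone values were negative. Copies of a class share reads, so the 31 genes are not independent observations, here or in the other comparisons. The number called lower ranged from 4 to 30 with the scaling: it was 4 with equal upper quartiles or with a trend on a measure of transcript length removed, 17 in TPM and 30 with equal library totals, where the median of all genes itself moved to −0.35.

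His3.3A and His3.3B encode the same H3.3 protein, which replaces H3 in transcribed chromatin. His3.3A had normalized counts of 906, 1406 and 1647 for ORB2 IP, 3112, 2796 and 2518 for control IP and 1688, 1356 and 1949 for input. All ORB2 IP values lay below all control IP values, and the log2 fold change was −1.13 (SE 0.23; limma Benjamini-Hochberg adjusted p 0.00392). His3.3B had 4776, 5340 and 6712 for ORB2 IP, 11619, 11288 and 12659 for control IP and 4676, 2988 and 3942 for input. It fell by 1.09 on the log2 scale relative to control IP (SE 0.24; limma adjusted p 0.00556).

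His2Av is the single H2A variant of the fly, with the roles that H2A.Z and H2A.X share out in mammals. Its normalized counts were 4847, 5482 and 7797 for ORB2 IP, 12657, 11426 and 13105 for control IP and 3459, 1179 and 1692 for input. Control IP was highest and input lowest, with no overlap between any 2 groups. The log2 fold change of ORB2 IP over control IP was −1.06 (SE 0.26; limma adjusted p 0.00823). His4r had 2561, 4389 and 5694 for ORB2 IP, 7587, 5919 and 7432 for control IP and 3980, 2757 and 4798 for input. It fell by 0.79 relative to control IP (SE 0.29; limma adjusted p 0.0429), and that call was lost when ORB2 IP replicate 1 or 2 or any control IP replicate was left out (adjusted p 0.0586 to 0.125; −0.47 without ORB2 IP replicate 1), and with the length trend removed (−0.22; 0.316). Further alternatives without the call were equal upper quartiles (−0.65; limma adjusted p 0.0878), all 9 libraries (0.0713) and no mean-variance trend (0.0591).

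No class total passed the test in ORB2 IP against control IP. The His2A, His2B, His3 and His4 totals did not overlap between the groups. The share of all genes without overlap was not counted, so no weight is given to this. The His3 total had a log2 fold change of −1.32 (SE 0.51; limma adjusted p 0.0503), the His2B total −1.08 (SE 0.47; 0.0778), the His2A total −1.03 (SE 0.41; 0.0589) and the His4 total −0.90 (SE 0.52; 0.171). The His1 total stood at −0.47 (SE 0.32; limma adjusted p 0.252) and overlapped. The SEs of the core totals were larger than those of the variants. They are drawn toward a mean-variance trend over all genes, and without that trend, an alternative chosen after seeing the data, His2A, His2B, His3 and His4 totals were all called lower with unchanged fold changes (adjusted p 0.0105 to 0.0261). Leaving out ORB2 IP replicate 3 also brought these 4 totals past the threshold, at −1.29 for His2A, −1.26 for His2B, −1.56 for His3 and −1.09 for His4, and raised the number of histone genes called lower from 8 to 21. Without control IP replicate 1 or 2 that number was 4 or 5, and without ORB2 IP replicate 2 it was 7.

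Single copies had unequal errors. His3:CG33818, the lower of the listed His3 copies, fell by 1.34 (SE 0.27; limma adjusted p 0.00409), while the dominant His3:CG33803 had −1.32 (SE 0.52; 0.0596). The other copies called lower were His4:CG33891 at −0.85 (SE 0.28), His1:CG33810 at −0.60 (SE 0.20) and His1:CG33822 at −0.59 (SE 0.20); these 4 names follow from their calls. The most abundant copies of the remaining classes did not pass: His2B:CG17949 had −1.17 (SE 0.45; limma adjusted p 0.0538), His2A:CG33832 −0.82 (SE 0.39; 0.107), His4:CG33883 −0.91 (SE 0.52; 0.177) and His1:CG33837 −0.42 (SE 0.27; 0.229). In 9 copies (3 His1, 1 His2A and 5 His2B) the SE exceeded 1 on the log2 scale, and the single positive value, 0.84 (SE 1.87) for His1:CG33855, is one of them.

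**Figure D2:**
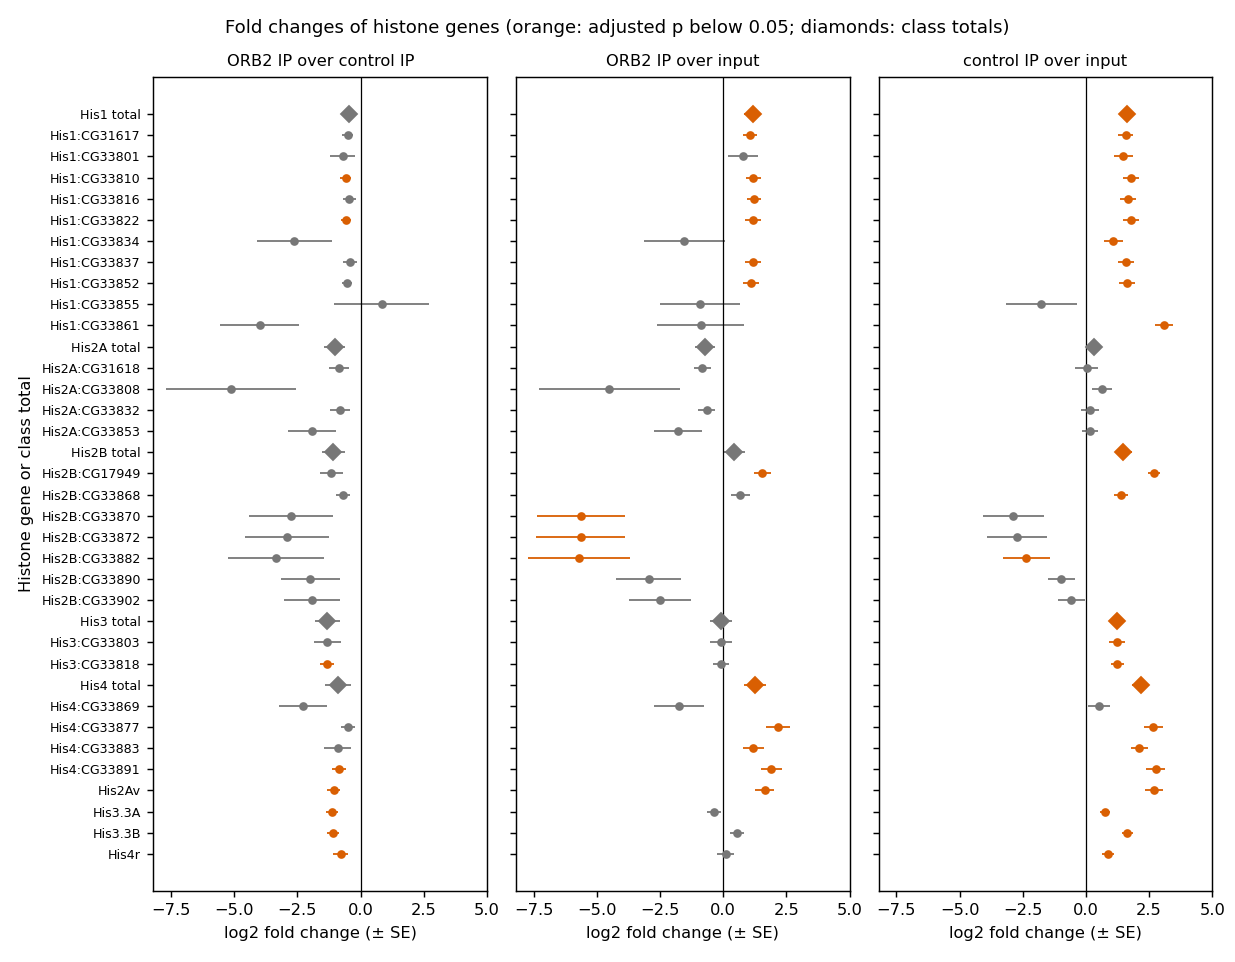
Log2 fold changes of normalized counts (± SE, 3 libraries against 3) for every listed histone gene (circles) and each class total (diamonds) in the 3 comparisons; orange marks a limma Benjamini-Hochberg adjusted p below 0.05. In ORB2 IP over control IP 30 of 31 genes lie left of 0 and 8 are orange, whereas 20 genes are orange on the right in control IP over input.

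Histone RNA was higher in control IP than in input. In control IP 20 of 31 histone genes rose, 1 fell and 10 did not pass, where 33.5% of all genes tested were called higher and 32.3% lower. The median was 1.24 over the histone genes and 0.01 over all 6355 genes tested. The His4 total rose by 2.16 (SE 0.33; limma adjusted p 4.97e-04), followed by His1 at 1.62 (SE 0.32; 0.00162), His2B at 1.48 (SE 0.34; 0.00383) and His3 at 1.22 (SE 0.30; 0.00571). The His2A total did not pass, at 0.32 (SE 0.28; limma adjusted p 0.328), and its sign turned in TPM (−0.33) and with equal library totals (−0.10). His4 normalized counts summed to 137640, 107309 and 91093 in control IP against 38726, 19509 and 19833 in input, while His2A sums of 70297, 51599 and 44251 overlapped input sums of 42541, 35825 and 53953.

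Among the variants, His2Av rose by 2.70 in control IP over input (SE 0.34; limma adjusted p 3.08e-04). His3.3B rose by 1.64 (SE 0.22; 3.50e-04), His4r by 0.89 (SE 0.24; 0.00977) and His3.3A by 0.76 (SE 0.20; 0.00765). In TPM, where the median of all genes stood at −0.60, His3.3A, His4r and the His1 total overlapped between control IP and input, unlike in normalized counts. His3.3A (0.11), His4r (0.23) and the His3 total (0.57) did not pass the test in TPM. With equal library totals His3.3A (0.34; limma adjusted p 0.117) and His4r (0.47; 0.0839) were not called, and with the length trend removed His3.3A stood at 0.09 (0.627) and His4r at −0.08 (0.689). By class, 9 of 10 His1, 2 of 2 His3, 3 of 4 His4, 2 of 7 His2B and 0 of 4 His2A copies rose. Leaving out control IP replicate 1 took His3:CG33803 from an adjusted p of 0.00756 to 0.056, and leaving out single libraries changed no class total's call. The single lower call, His2B:CG33882, is one of the copies with shifting shares, and the number called lower ranged from 0 to 5 (0 without control IP replicate 2 or 3 or input replicate 1 or 3).

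Other genes with short transcripts also had higher values in control IP than in input. The ratio of normalized count to TPM, which rises with transcript length, placed 18 of 31 histone genes at or below the lowest 10% of all other genes. This ratio was taken over the same 9 libraries and does not measure length alone. His2B copies, all annotated at 595 nt, had ratios from 1.44 (CG33870) to 1.81 (CG17949). Removing its trend is therefore not an independent adjustment for length. The 626 other genes in that range had a median log2 fold change of 0.90 in control IP over input and −0.62 (625 genes) in ORB2 IP over control IP. In ORB2 IP over input 620 such genes had a median of 0.29, whereas the histone median was −0.10. With the trend on this ratio removed, the His4 total kept its call in control IP over input. His2B (0.59, limma adjusted p 0.0576) and His3 (0.23, 0.382) lost theirs there, and His2A was called lower (−0.74, 0.0185). The same adjustment took the histone median in control IP over input from 1.24 to 0.49. In ORB2 IP over control IP 4 histone genes were called lower with it. The His3 total, not called there in the main fit (−1.32, SE 0.51), was called with it. Its fold change was smaller, at −0.75, and so was its SE, at 0.26 (limma adjusted p 0.0363). The part of transcript length in these values was not tested.

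**Figure D3:**
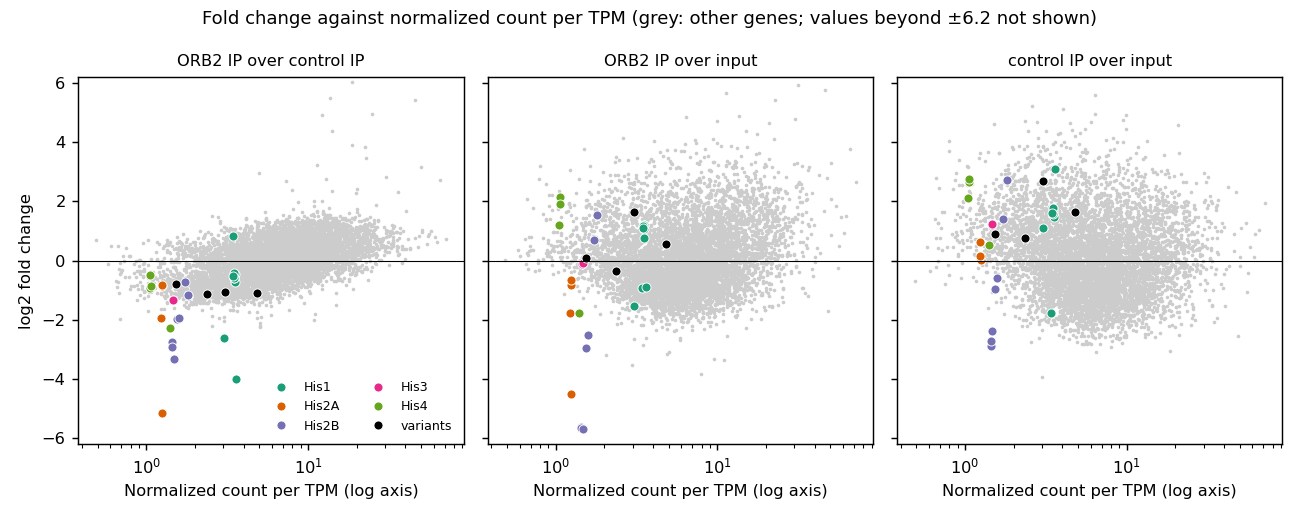
Log2 fold change of each gene against its normalized count per TPM on a log axis, a quantity that rises with transcript length, for the 3 comparisons; grey points are other genes and coloured points histone genes by class. His4, His3 and His2A copies sit at the left edge, where other genes have a median of 0.90 in control IP over input, and His1 copies and His3.3B lie nearer the middle.

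In ORB2 IP over input the His1 and His4 totals rose and the other class totals did not pass. Of 31 histone genes 11 rose, 3 fell and 17 did not pass, where 26.0% of all genes tested were called higher and 25.1% lower. The median was −0.10 over the histone genes and −0.03 over all 6344 genes. Linker His1 rose as a class by 1.16 (SE 0.33; limma adjusted p 0.0151), and 6 of its 10 copies were called, between 1.06 and 1.22. This does not cover BigH1, a linker histone gene outside the symbols taken here. It fell by 1.16 in this comparison (SE 0.24, limma adjusted p 0.00413). The His4 total rose by 1.26 (SE 0.43; limma adjusted p 0.0304), with 3 of 4 copies called. His2B (0.41, SE 0.44), His3 (−0.10, SE 0.43) and His2A (−0.71, SE 0.39) did not pass (limma adjusted p 0.457, 0.866 and 0.153). The His2B value turned to −0.37 with equal library totals. The His2A total was called lower in TPM (−1.11; limma adjusted p 0.00114), with equal library totals (−1.49; 0.00142) and with the length trend removed (−1.23; 0.00254).

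Of the variants His2Av rose over input in ORB2 IP, by 1.64 (SE 0.38; limma adjusted p 0.00658). His3.3B had 0.55 (SE 0.27; 0.118), His4r 0.09 (SE 0.34; 0.836) and His3.3A −0.36 (SE 0.27; 0.289). His3.3A was called lower in TPM (−0.76; limma adjusted p 0.0101), with equal library totals (−1.14; 0.00303) and with the length trend removed (−0.54; 0.0359), where His3.3B was called higher (0.89; 0.0115). The His1 total missed the threshold with similar fold changes without ORB2 IP replicate 2 (1.21; adjusted p 0.0501), input replicate 2 (1.06; 0.0739) or input replicate 3 (0.95; 0.086). So did the His4 total without ORB2 IP replicate 2 (1.22; 0.126) or 3 (1.07; 0.0642) and without input replicate 2 (1.09; 0.156) or 3 (1.10; 0.125). With equal library totals the median of all genes moved to −0.81, and His1 (0.38) and His4 (0.48) were no longer called; relative to that median they stood at 1.19 and 1.29. His2Av (0.85; limma adjusted p 0.062) was not called there either, and the signs of His3.3B (−0.24) and His4r (−0.69) turned. The comparisons of the immunoprecipitates share libraries with one another, so their values stand side by side and were not correlated.

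Of the 10 ratios between class totals, some set both immunoprecipitates apart from input and others overlapped it. The ratio of His4 to His3 TPM was 1.76, 1.86 and 1.64 for ORB2 IP, 1.38, 1.38 and 1.18 for control IP and 1.03, 0.75 and 0.41 for input. No 2 groups overlapped, and each exact two-sided permutation test gave 0.1, the smallest p that 3 against 3 libraries allow. These proteins pair in the nucleosome core, as do H2A and H2B. The His2B to His2A ratio was 1.30, 1.33 and 1.11 for ORB2 IP, 1.20, 1.29 and 1.33 for control IP and 0.70, 0.42 and 0.63 for input. The immunoprecipitates overlapped each other (exact permutation p 0.9) and lay above input (0.1 each). Ratios that overlapped input were His4 to His1 in ORB2 IP (exact permutation p 0.6) and His2B to His1 (1.0), His3 to His1 (0.7) and His3 to His2B (0.2) in control IP.

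As a share of histone TPM, His2A copies took 27.7% ± 3.8 (SD, n = 3) of input, 13.6% ± 0.93 of ORB2 IP and 13.6% ± 0.66 of control IP. His4 copies took 21.0% ± 6.8 of input, 39.4% ± 1.1 of ORB2 IP and 35.7% ± 1.4 of control IP (SD, n = 3). His2B shares overlapped throughout, at 15.8% ± 2.8, 16.9% ± 0.55 and 17.3% ± 0.22 in the same order. By replicate number the His2B share in ORB2 IP against control IP was 17.0% against 17.1%, 17.4% against 17.5% and 16.3% against 17.2%. The unpaired exact permutation test of this class gave 0.4, and the labels do not state a pairing. Between the immunoprecipitates the His3 share was lower in ORB2 IP (22.5% ± 0.87 against 27.3% ± 1.5), the His4 share was 3.75 points higher and the His1 share 1.10 points higher, each without overlap. The exact two-sided permutation tests of these differences gave 0.1, or 0.167 adjusted over the 5 classes, so none could pass in this design.

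The His2A to His1 ratio ran the other way from His4 to His3. It was 3.16, 4.54 and 5.52 for ORB2 IP, 6.22, 5.99 and 7.04 for control IP and 10.1, 14.8 and 26.1 for input, with no overlap between any 2 groups. His2Av made up 10.5%, 8.67% and 8.47% of the summed His2A and His2Av TPM for ORB2 IP, 7.58%, 9.08% and 11.7% for control IP and 3.52%, 1.48% and 1.41% for input. Both immunoprecipitates lay above input and overlapped each other. The share of His3.3 in the summed His3 and His3.3 TPM overlapped in all groups, with means of 4.86%, 4.21% and 4.01% in ORB2 IP, control IP and input. The variant His3.3B stood above His3.3A by ratios of 2.70, 1.94 and 2.09 for ORB2 IP, 1.91, 2.07 and 2.57 for control IP and 1.42, 1.13 and 1.04 for input. These ratios were chosen after class levels were seen.

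**Figure D4:**
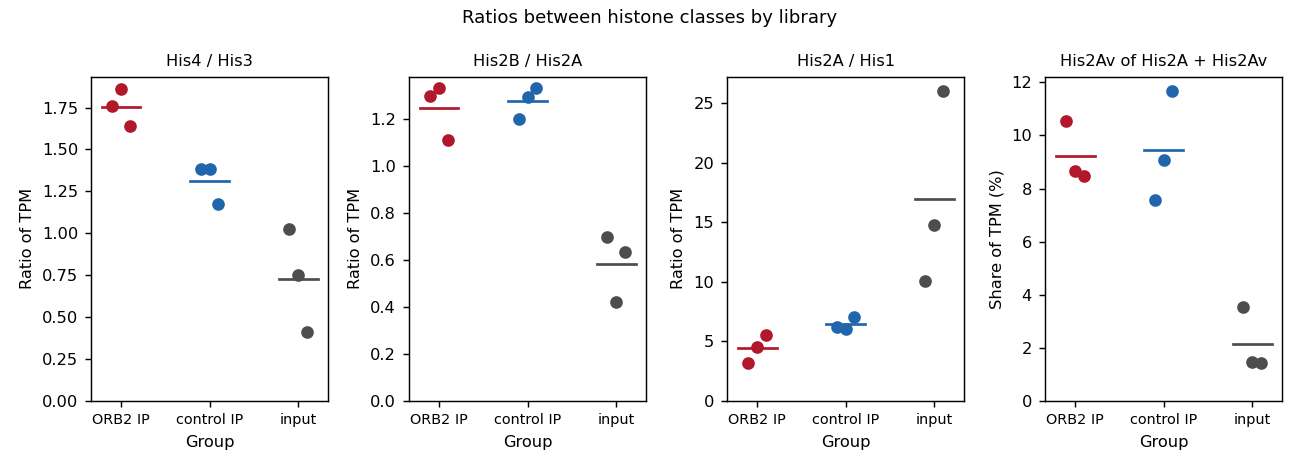
Ratios of class TPM totals (His4 to His3, His2B to His2A, His2A to His1) and the share of His2Av in the summed His2A and His2Av TPM; points are libraries and bars group means (n = 3). The His4 to His3 ratio is highest in ORB2 IP (1.64 to 1.86), and the His2B to His2A ratio is at most 0.70 in input and at least 1.11 in the immunoprecipitates.

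How the class total was divided among copies differed by class. In His3 the division was constant: His3:CG33803 held 93.0% to 94.1% of the class TPM in all 9 libraries. In His4, His4:CG33883 held 87.8% to 93.6%, and in His1, His1:CG33837 held 45.2% to 47.8% beside His1:CG33816 at 18.7% to 22.2%. The most abundant copy thus kept its rank in these 3 classes.

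In His2B the division moved between libraries. His2B:CG17949 held 80.5%, 87.2% and 68.4% in ORB2 IP, 81.4%, 87.5% and 81.2% in control IP, but 30.1%, 62.2% and 24.3% in input. The 5 copies CG33870, CG33872, CG33882, CG33890 and CG33902, grouped after their values were seen, together held 10.9%, 0.281% and 23.1% for ORB2 IP, 11.9%, 4.18% and 11.2% for control IP and 61.6%, 29.6% and 68.0% for input. The remaining copy, CG33868, stayed between 6.69% and 12.5%. Shares within a class sum to 100%, so a higher share of CG17949 goes with a lower share of the others. The fitted values followed this division and were of opposite sign within one class: over input, His2B:CG17949 rose by 2.71 in control IP (SE 0.24; limma adjusted p 2.73e-04), while His2B:CG33882 fell by 2.36 (SE 0.93; 0.0465). In ORB2 IP over input His2B:CG17949 rose by 1.54 (SE 0.33; limma adjusted p 0.00482), and the 3 histone genes called lower were His2B:CG33870, His2B:CG33872 and His2B:CG33882, with SEs of 1.75 to 2.01. All 3 overlapped input in their values, and without ORB2 IP replicate 2, where each was listed at 0, the number of histone genes called lower was 0. It was also 0 without input replicate 3, 1 without ORB2 IP replicate 1 and 6 without ORB2 IP replicate 3, and the number called higher fell from 11 to 7 without input replicate 3.

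His2A showed the same kind of exchange. His2A:CG33808, whose annotated transcript is 476 nt against 493 nt for the other listed His2A copies, was listed at 0 in ORB2 IP replicate 1. It had normalized counts of 5521 and 17406 in ORB2 IP replicates 2 and 3, 10458, 17466 and 22899 in control IP against 17386, 6344 and 10264 in input. His2A:CG33832 held 77.9% of the class where CG33808 was at 0 and 39.7% in control IP replicate 3, where CG33808 reached 53.0%. In TPM the median coefficient of variation of the His2A copies across the ORB2 IP libraries was 74.3%, against 15.9% for the class total. In normalized counts CG33832 (11.4%) and CG31618 (31.4%) varied less than the total (34.4%). For His2B the corresponding TPM values were 99.5% and 6.74%, and for His3, with its constant division, 15.3% and 12.6%.

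Zeros fell in 8 of the 27 repeat copies and in none of the 4 variants. His1:CG33834 was listed at 0 in ORB2 IP replicates 2 and 3 and at 142 in replicate 1, with 53.2, 24.4 and 23.5 in control IP against 13.1, 11.8 and 18.6 in input. His1:CG33861 was at 375, 0 and 185 in ORB2 IP, at 700.0, 765 and 523 in control IP and at 105, 99.9 and 40.4 in input. Its control IP values stood clear of input, and it rose by 3.10 (SE 0.35; limma adjusted p 2.75e-04). His1:CG33855 was near 0 in one library of each immunoprecipitate, at 1.83, 430 and 524 in ORB2 IP against 270, 1.81 and 146 in control IP. These copies were chosen after their values were seen, and differences between single copies of a class cannot be told apart from differences in read division.

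**Figure D5:**
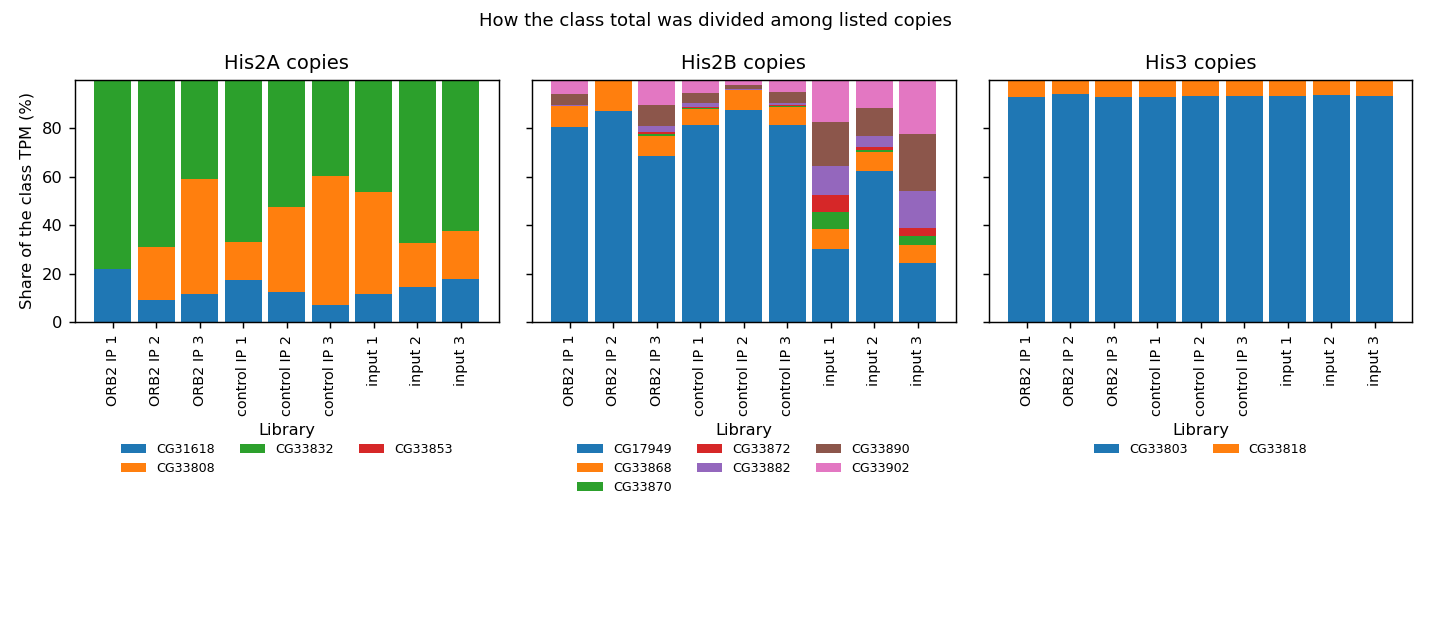
Share of the class TPM held by each listed copy in each library, as stacked bars that sum to 100% for His2A, His2B and His3. The His3 division is constant at 93.0% to 94.1% for CG33803, while CG17949 ranges from 24.3% to 87.5% of His2B and CG33808 from 0 to 53.0% of His2A.

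Genes that act on histone mRNAs and proteins were mixed in direction between ORB2 IP and control IP. Of 17 tested genes for histone mRNA processing 5 rose and 3 fell, with a median of 0.10, beside 20.8% higher and 21.6% lower over all genes. Slbp, the stem-loop binding protein, did not pass there, at 0.39 (SE 0.16; limma adjusted p 0.0709). Lsm11, a subunit of the U7 snRNP that cleaves histone pre-mRNA, had normalized counts of 42.7, 13.4 and 40.3 in ORB2 IP against 79.8, 78.4 and 64.7 in control IP and fell by 1.34 (SE 0.40; limma adjusted p 0.0198). Of 20 tested histone chaperones and binding proteins 6 rose and 6 fell, with a median of −0.12. Caf1-105 and Caf1-180, subunits of the assembly factor that deposits H3 and H4 behind the replication fork, rose by 1.18 (SE 0.21) and 1.09 (SE 0.23), with limma adjusted p of 0.00249 and 0.00477. Set and Df31, histone-binding proteins, fell by 1.20 (SE 0.18) and 1.09 (SE 0.29), with limma adjusted p of 0.00116 and 0.0119.

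Of 6 genes tested for other chromatin proteins, 5 fell and 0 rose in ORB2 IP over control IP, with a median of −0.93, where 21.6% of all genes were called lower. The remaining gene, cid, which encodes the centromeric H3 variant, had 0.06 (limma adjusted p 0.831). The HMG-box protein gene HmgZ had normalized counts of 77.3, 49.1 and 100.3 in ORB2 IP against 231, 175 and 171 in control IP and fell by 1.38 (SE 0.27; limma adjusted p 0.00335). The genes of the replication list were mixed, with 4 of 15 higher and 2 lower. Among them geminin, an inhibitor of replication licensing, fell by 1.33 (SE 0.20; limma adjusted p 0.00114). Over input, the shares of all genes called higher and lower were 26.0% and 25.1% for ORB2 IP, with 33.5% and 32.3% for control IP. There 7 of 17 processing genes rose and 5 fell in ORB2 IP, and 5 rose and 5 fell in control IP. Of the 15 replication genes, 1 rose and 7 fell in ORB2 IP over input, and 3 rose and 9 fell in control IP. The chaperones stood at 5 and 5 of 20 in ORB2 IP against 8 and 7 in control IP, and the other chromatin proteins at 0 and 3 of 6 and at 3 and 1.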

How the data were processed

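The authors deposited 1 table of TPM and 1 of normalized counts. As deposited by the authors, the normalized counts are a per-gene signal scaled between libraries, by a method not given in the sources used here. Tools listed in the submitters' processing notes, without roles, are DESeq2 1.42.1, Salmon 1.9.1 and Trim Galore 0.6.5. How reads shared by histone copies were divided is not given. Libraries were grouped by sample titles (3 groups of 3). Each comparison was fitted on its 6 libraries with limma 3.58.1 (R 4.3.3, limma-trend, two-sided) on log2(normalized count + 1), for genes with a mean of at least 10; all 31 histone genes passed. Fold changes are on that log2 scale, which understates changes of low genes. Genes were called at a Benjamini-Hochberg adjusted p below 0.05 over all genes. For class totals, copies of a class were replaced by their sum and the whole table refitted. Levels between genes were compared in TPM. The fit was tested on simulated data with the same noise for every gene. Log2 changes of 1 were recovered in 96% of changed genes for ORB2 IP against control IP. Recovery was 68% for ORB2 IP against input and 87% for control IP against input, with 14, 9 and 8 false calls. The simulation held no mean-variance trend and no shared reads, so it does not test the fit for histone copies. Shares and ratios used exact two-sided permutation tests (Python 3.11.15, scipy 1.17.1). Depth is unknown, and depth limits precision most for low copies.

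Deviations of same-numbered ORB2 IP and control IP libraries were weakly correlated (0.10, 0.22 and 0.27). For control IP and input the correlations were 0.04, 0.19 and 0.18, and for ORB2 IP and input −0.19, 0.10 and 0.18. The labels do not say whether equal numbers mark a pair. The main fits and the permutation tests were unpaired, and a replicate block was an alternative. Named with values were class totals, variants, the most abundant copy of each class and up to 8 listed pathway genes. Slbp, cid and BigH1 were named outside that rule, BigH1 after its values were seen. Other copies were chosen after their values were seen. The histone genes, lists and tests were chosen with earlier results of these data known. Alternatives were other pseudocounts (0.1, 10), filters (none, 50), scalings, the TPM table, a length trend removed (lowess, span 0.3, fitted on other genes), all 9 libraries, a replicate block and leaving out each library; the fit without a mean-variance trend was added after seeing the data.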

Additional observations from a re-analysis of the deposited data

How the results depend on the processing

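With equal library totals the median of all genes moved to −0.35 in ORB2 IP over control IP, −0.81 in ORB2 IP over input and −0.41 in control IP over input. In TPM it stood at 0.24, −0.42 and −0.60. The cause of the changes given here was not tested. In ORB2 IP over control IP, histone genes called lower numbered 8, against 17 in TPM, 30 with equal totals, 4 with equal upper quartiles, 4 with the length trend removed and 10 with the replicate block. Class totals that passed there under an alternative were His1 at −0.82 with equal totals; His2A at −0.79 in TPM, −1.39 with equal totals and −1.03 with all 9 libraries or no mean-variance trend; and His2B at −0.82, −1.44 and −1.08 under the same alternatives. His3 passed at −1.32 with a pseudocount of 0.1, a filter of 50, all 9 libraries or no trend, at −1.07 in TPM, at −1.68 with equal totals and at −0.75 with the length trend removed. His4 passed at −0.65 in TPM, −1.26 with equal totals and −0.90 with no trend. No class total changed its sign in this comparison.

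In ORB2 IP over input, histone genes called higher went from 11 to 3 with equal totals. Those called lower went from 3 to 11 in TPM, 12 with equal totals, 7 with the length trend removed and 6 with the replicate block. The histone median of −0.10 turned to 0.078 with a pseudocount of 10 and 0.094 with a filter of 50, and was −0.88 with equal totals. With equal totals the His1 (0.38) and His4 (0.48) totals were not called, His2A (−1.49) and His3 (−0.88) were called lower, and His2B (−0.37) and His3.3B (−0.24) turned. His2A was also called at −1.11 in TPM and −1.23 with the length trend removed. His4r turned to −0.31, −0.69 and −0.33 in TPM, with equal totals and with the length trend removed.

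In control IP over input, histone genes called lower went from 1 to 2 with a pseudocount of 10, 5 in TPM, 4 with equal totals, 6 with the length trend removed, 4 with the replicate block and 0 with all 9 libraries or no trend. The histone median of 1.24 moved to 0.59 in TPM and 0.49 with the length trend removed. His2A turned to −0.33 in TPM, −0.10 with equal totals and −0.74 with the length trend removed, and His2A:CG33832 to −0.49, −0.25 and −0.90. His3 lost its call at 0.57 in TPM and 0.23 with the length trend removed, where His2B (0.59) lost its call and His4r (−0.084) turned.

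Leaving out each library in turn gave, in ORB2 IP over control IP, 4 to 21 histone genes called lower, and class totals from −1.29 to −0.79 for His2A, −1.26 to −0.85 for His2B, −1.56 to −1.08 for His3 and −1.09 to −0.67 for His4. In ORB2 IP over input it gave 7 to 12 higher, 0 to 6 lower, a median from −0.33 to 0.53, and totals from 0.95 to 1.47 for His1, −0.34 to 0.14 for His3 and 1.07 to 1.59 for His4, with His4r from −0.16 to 0.42 and His3:CG33803 from −0.33 to 0.14. In control IP over input it gave 0 to 5 lower and His2A:CG33832 from −0.19 to 0.50. Differences in class share ranged from −0.49 to 0.39 points for His2A between the immunoprecipitates, −0.41 to 2.33 for His2B in ORB2 IP over input, and −0.064 to 0.54 for His1 and −0.044 to 2.69 for His2B in control IP over input. The replicate block changed no class total's call; in ORB2 IP over input it took the His4:CG33883 call to an adjusted p of 0.057 by limma.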
